A study of Rattus norvegicus with 6 samples.

Results

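The imprinted Dlk1-Dio3 locus carries one of the largest groups of miRNA genes in the rat genome. The group was taken as every row of the deposited table whose name matches a fixed list of rat miRNAs of the locus. The match used no measured value, but the list was chosen with earlier results of these data known. It gave 49 rows among 584 rows of known miRNA arms and 1289 rows in all. Small RNA was sequenced from 6 libraries of PC12 cells, a line grown from a rat adrenal pheochromocytoma, which is a tumour of chromaffin cells. There were 3 libraries labelled EC and 3 labelled EN, and the labels spell out neither abbreviation, nor any dose or time. All 6 libraries share the same line, and the series title concerns Netrin-1, exosomes of endothelial cells and the repair of peripheral nerve. Nothing in the labels ties the replicates to separate cultures, so p-values rest on a spread that may be technical only.

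In the Dlk1-Dio3 domain, protein-coding genes such as Dlk1, Rtl1 and Dio3 are expressed from the paternal chromosome, and long noncoding transcripts that carry the miRNAs are expressed from the maternal one. Among the upstream miRNAs, miR-127, miR-136, miR-431 and miR-433 lie antisense to Rtl1, a gene needed in the placenta. The downstream miRNAs, from miR-379 to miR-410, form a long cluster that is known for high expression in brain, where miR-134 limits the size of dendritic spines and neuronal activity can raise the transcription of the cluster. PC12 cells are often used as a model of neurons, so the level of this brain-rich cluster in them is of interest.

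All 49 rows matched a mature miRNA of the RefSeq table, with lengths from 20 to 25 bases, so no correction for length was made. Whether miRNAs of different sequence were read equally well was not tested, which limits comparisons of counts between rows. In that table, which uses the GRCr8 assembly while the submitters' processing notes name Rnor 6.0, the members belong to genes on chromosome 6, and only the order of genes was taken from it. The rule covers 47 genes and 86 mature names there, of which 36 genes and 49 names have a row. The other 37 names were not analysed here. The sequences below are from RefSeq, written 5′ to 3′, with the seed (bases 2 to 8, which pair with target mRNAs) in capitals. They are the 3 members with enough reads for a test, followed by 3 further members whose values did not overlap between the groups.

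miR-411-5p: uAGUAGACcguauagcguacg
miR-379-5p: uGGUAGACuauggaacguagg
miR-376a-3p: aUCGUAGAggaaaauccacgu
miR-380-3p: uAUGUAGUaugguccacaucu
miR-154-5p: uAGGUUAUccguguugccuucg
miR-329-3p: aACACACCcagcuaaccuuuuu

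The genes of miR-379 and miR-411 are neighbours at the start of the downstream cluster, and their 5p arms have the same base at 14 of 21 positions and at 6 of 7 seed positions. No seed was shared between 2 members with rows. Outside the cluster, miR-329-3p shares its seed with miR-362-3p, and miR-410-3p shares its seed with miR-344b-1-3p, each pair differing in the rest of the sequence. No member lay closer than 7 edits (bases changed, inserted or lost) to a known row outside the cluster, whereas 4 members lay within 3 edits of another member.

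The cluster was at a very low level in both groups. Its 49 rows together held 140, 146 and 149 counts in the EC libraries and 211, 146 and 157 counts in the EN libraries, while each library held between 4521694 and 6554639 counts over all rows. Over the 6 libraries this came to 949 counts, or 28.3 CPM on their summed total (CPM scales counts to a common library total). The most abundant miRNA of the table, miR-22-3p, alone had 2847 times as many counts as the whole cluster. In RNA from bulk cells, a low level in every cell and expression in a few cells cannot be told apart.

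Levels from here on are CPM over the sum of all rows, with TMM factors, unless stated. The median over the 49 members of the mean level was 0.154 CPM, against 12.6 CPM over the 535 other known rows. None of the members reached a mean of 10 CPM, a level that 275 of the other known rows, or 51.4 percent, reached. A mean of 1 CPM was reached by 5 members and by 396 of the other known rows. The best-placed member, miR-411-5p, ranked 288 of 584 by level, and the other 48 members were all in the lower part of that order. Members made up 8.39 percent of known rows but 24.0 percent of those under 1 CPM. These are descriptions over rows, which are not replicates.

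**Figure D1:**
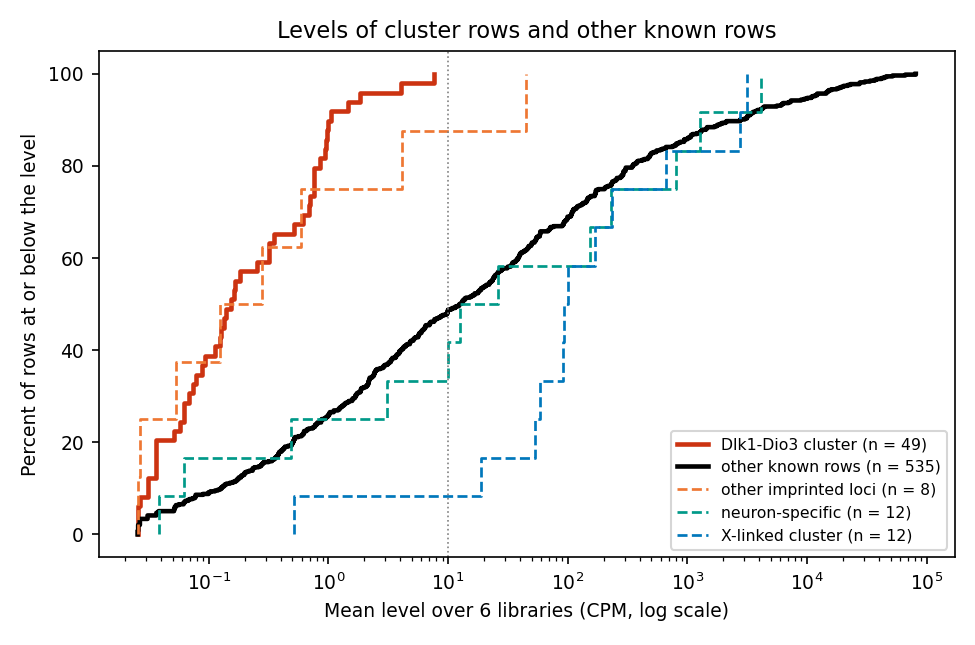
Share of rows (y, percent) at or below a mean level over the 6 libraries (x, CPM on a log scale) for the 49 cluster rows, the 535 other known rows and 3 comparison lists, with a dotted line at 10 CPM. The cluster curve ends below 10 CPM with a median of 0.154, while the other known rows have a median of 12.6.

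Reads were spread thinly over many members. Of the 49 rows, 15 had at least 1 count in all 6 libraries, 13 in 3 to 5 libraries, 8 in 2 and 13 in 1. Among the other known rows, 415 of 535 (77.6 percent) had counts in all 6 libraries, against 30.6 percent of the members. In single libraries, 24 to 27 members had a count in EC and 27 to 31 in EN, and the other members stood at 0, which allows up to 3 counts, or 0.458 to 0.663 CPM before TMM scaling. At 0 in all EC libraries were 13 members, none with more than 5 counts over the EN libraries, and 6 members were at 0 in all EN libraries, none with more than 3 counts over the EC libraries. At this depth such rows do not differ detectably between the groups. The table lists no row with 0 counts in all libraries, so its lowest rows rest on 1 read, as 10 of the members do.

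**Figure D2:**
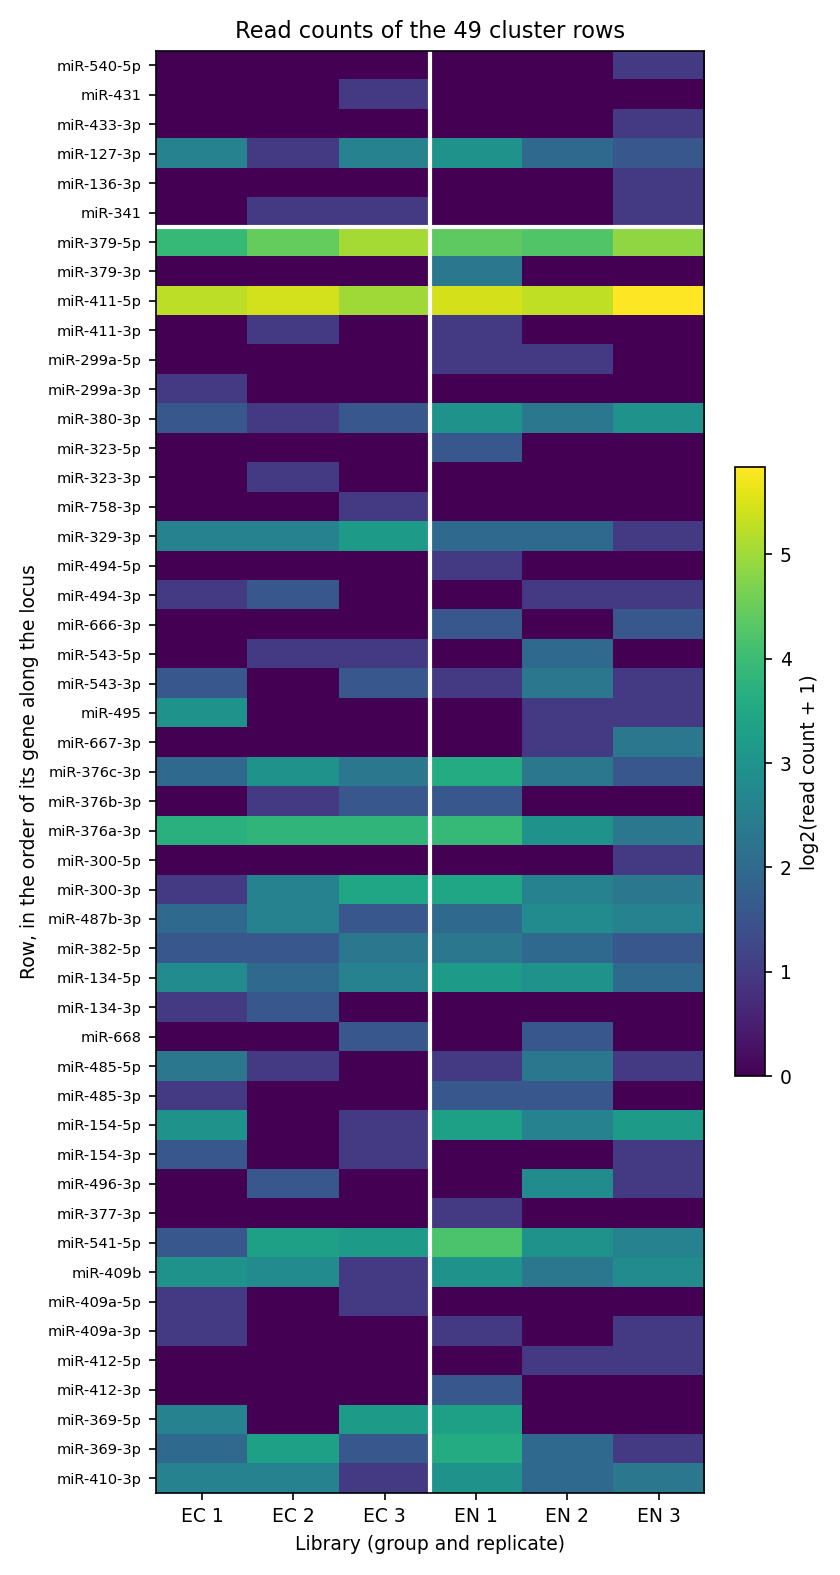
Read counts of the 49 cluster rows (y, in the order of their genes along the locus) in each of the 6 libraries (x), coloured by log2(count + 1), with white lines between EC and EN and between the upstream and downstream genes. MiR-411-5p, at 31 to 56 counts, and miR-379-5p, at 14 to 32, stand out, and most other cells hold few counts or none.

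The reads that were present came from the downstream genes. The upstream genes had 6 rows, with 30 counts over all libraries (3.16 percent of the cluster's counts), and the downstream genes had 43 rows with 919 counts. Of the upstream counts 23 belonged to miR-127-3p, which targets the Rtl1 transcript it lies opposite to. MiR-127-3p had 5, 1 and 5 counts in EC and 7, 3 and 2 in EN, so the groups overlapped. MiR-341 had 3 counts in all, and miR-431, miR-433-3p, miR-136-3p and miR-540-5p had 1 count each. Among the downstream genes, the first pair in the order, miR-379 and miR-411, stood above all others, and 40.0 percent of the cluster's counts fell on their 5p arms.

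**Figure D3:**
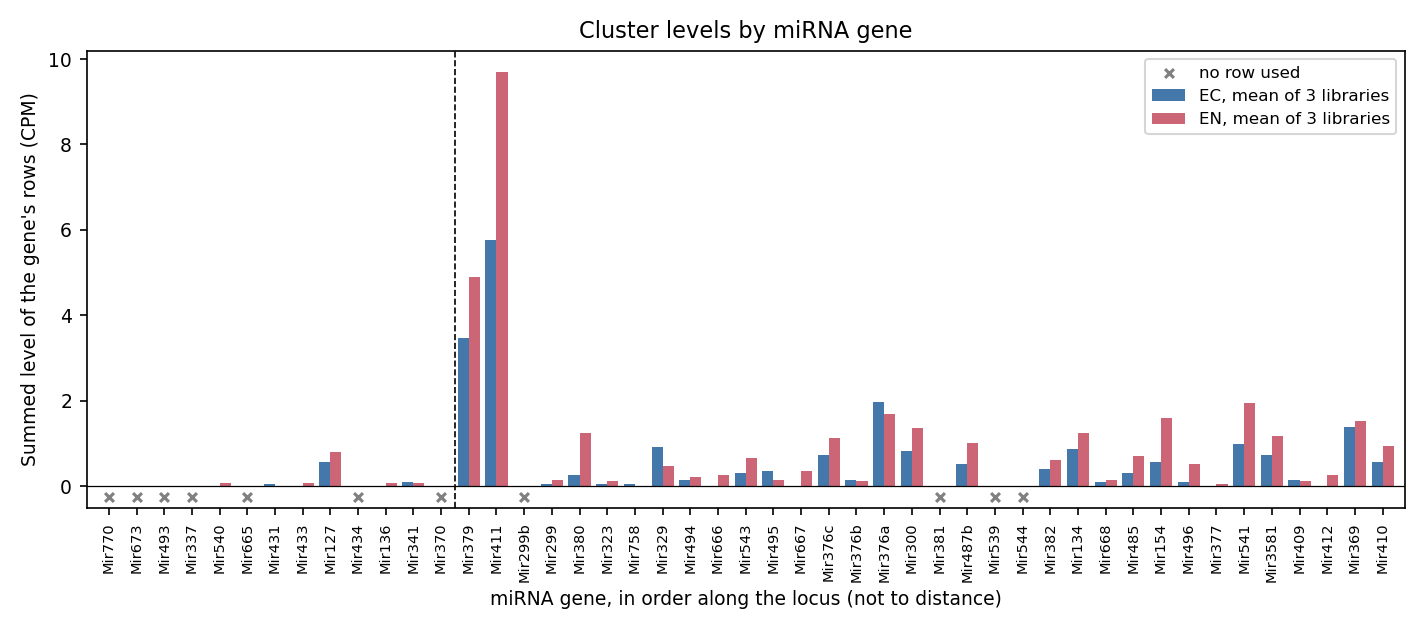
Level of each miRNA gene of the cluster (y, CPM summed over its rows, mean of 3 libraries per group) in the order of the RefSeq table (x, not to distance), with a dashed line between upstream and downstream genes and crosses for genes with no row used here. Mir411 and Mir379 are highest in both groups, and the other genes with rows stay at or below 1.97 CPM.

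MiR-411-5p, the member of highest level, had 37, 42 and 31 counts in EC and 43, 38 and 56 in EN, or 5.71, 6.70 and 4.73 CPM against 7.95, 8.69 and 12.3 CPM. Every EN library was above every EC library. Its mean level was 5.72 ± 0.986 CPM (EC) against 9.63 ± 2.31 CPM (EN; SD, n = 3). The log2 fold change of EN over EC was 0.75 (SE 0.26), which missed the threshold of 0.05 in edgeR's quasi-likelihood test (adjusted p = 0.143, Benjamini-Hochberg over 628 rows). The exact Poisson intervals cover counting error only. They reached from 4.83 to 9.06 CPM in EC replicate 2, the highest of EC. In EN replicate 1, the lowest of EN, they reached from 5.76 to 10.7 CPM. Each interval holds the other library's value, so these 2 nearest libraries were not apart beyond counting error. That does not extend to the group means. The interval of EN replicate 2, from 6.15 to 11.9 CPM, also overlapped that of EC replicate 2. The interval of EN replicate 3, from 9.26 to 15.9 CPM, lay above it. The other arm, miR-411-3p, had 2 counts over all libraries.

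MiR-379-5p, whose gene opens the downstream cluster, had 14, 21 and 32 counts in EC and 20, 18 and 28 in EN. Its mean level was 3.47 ± 1.37 CPM (EC) against 4.65 ± 1.302 CPM (EN; SD, n = 3), with overlap of the groups. Its log2 fold change was 0.42 (SE 0.38, adjusted p = 0.589 by edgeR). It lay below miR-411-5p in 5 of 6 libraries and above it in EC replicate 3, with 32 against 31 counts. MiR-379-3p had 4 counts, all in EN replicate 1.

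MiR-376a-3p, of a family known for A-to-I editing of its transcripts, had 12, 13 and 13 counts in EC and 14, 7 and 4 in EN. The EC libraries lay close together at 1.97 ± 0.112 CPM, and the EN libraries, at 1.69 ± 0.860 CPM (SD, n = 3), lay on both sides of them. Its log2 fold change was -0.20 (SE 0.44, adjusted p = 0.825 by edgeR), and it became 0.10 without EN replicate 3. The related miR-376c-3p had 3, 7 and 4 counts in EC and 11, 4 and 2 in EN, and miR-376b-3p had 5 counts in all. Their sequences differ from miR-376a-3p by 4 and 3 edits.

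miR-376a-3p: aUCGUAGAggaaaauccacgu
miR-376b-3p: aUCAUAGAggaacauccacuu
miR-376c-3p: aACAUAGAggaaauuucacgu

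These 3 were the only members that passed the filter on low counts, and 0 of the 3 passed edgeR's test, where 25 of 628 rows, or 3.98 percent, did. At an unadjusted p under 0.05 there was 1, miR-411-5p, where 21.7 percent of all rows were. DESeq2, which called 11.1 percent of rows, and limma-voom, which called 3.66 percent, also gave 0 calls and 1 unadjusted p under 0.05 among the 3. With no filter, where edgeR called 3.41 percent of rows, 0 of the 49 members passed and 4 had an unadjusted p under 0.05, namely miR-411-5p, miR-154-5p, miR-380-3p and miR-667-3p, with adjusted p of at least 0.165 for all members. The 3 had log2 fold changes with a median of 0.42, beside a median of 0.02 over all rows tested. With 46 members untested, these counts say little about the cluster.

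**Figure D4:**
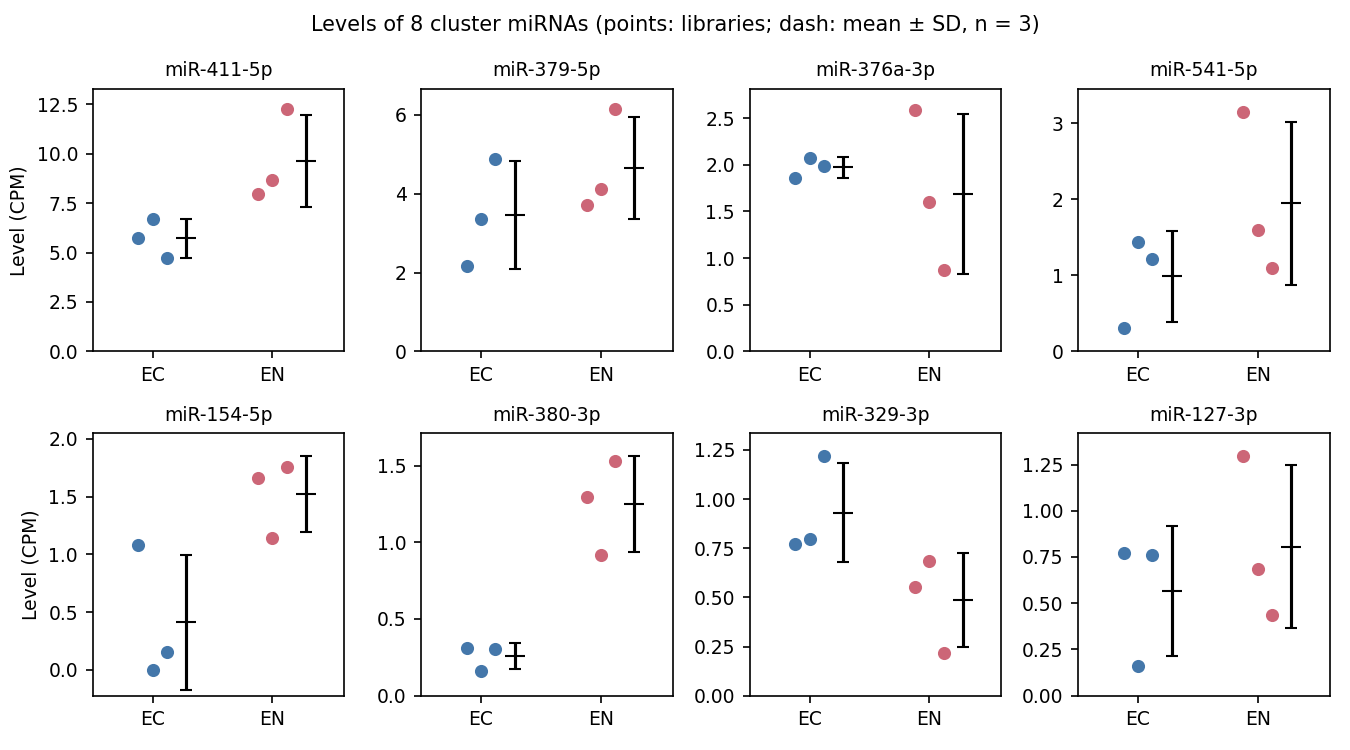
Level (y, CPM, a separate scale for each panel) of 8 cluster miRNAs in the EC and EN libraries (points), with the mean ± SD of 3 libraries beside them. MiR-411-5p, miR-154-5p and miR-380-3p are higher in every EN library than in any EC library, miR-329-3p is lower, and the groups overlap in the other panels.

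In 4 of 49 members, or 8.16 percent, the ranges of the 3 EN and the 3 EC values did not overlap, and the share over all known rows was 25.7 percent. Besides miR-411-5p, 2 lay higher in EN and 1 lower. MiR-380-3p, whose gene lies near the start of the downstream cluster, had 2, 1 and 2 counts in EC and 7, 4 and 7 in EN, or 0.258 ± 0.0851 against 1.25 ± 0.312 CPM (SD, n = 3). MiR-154-5p had 7, 0 and 1 counts in EC and 9, 5 and 8 in EN, with EC replicate 1 close to the EN libraries. MiR-329-3p had 5, 5 and 8 counts in EC and 3, 3 and 1 in EN. With library totals implied by the deposited RPM as the divisor, miR-380-3p and miR-329-3p stayed apart between the groups, and miR-411-5p and miR-154-5p overlapped.

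The seed partners of 2 downstream members stood at higher levels. MiR-362-3p, of an X-linked cluster, had 27, 28 and 42 counts in EC and 22, 12 and 25 in EN, above miR-329-3p in every library. MiR-344b-1-3p had 13, 11 and 12 counts in EC and 8, 10 and 6 in EN, and miR-410-3p, the last gene of the cluster, had 5, 5 and 1 counts in EC and 7, 3 and 4 in EN. Each partner thus had more reads with the shared seed than the cluster member did.

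miR-329-3p: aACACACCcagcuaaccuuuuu
miR-362-3p: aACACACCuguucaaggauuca
miR-410-3p: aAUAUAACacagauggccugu
miR-344b-1-3p: gAUAUAACcaaagcccgacugu

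Among the other downstream members, miR-541-5p had 2, 9 and 8 counts in EC and 17, 7 and 5 in EN, and miR-300-3p had 1, 5 and 10 in EC and 10, 5 and 4 in EN. In both, EN replicate 1 was at the top of the EN libraries, and the groups overlapped. MiR-134-5p, the member known from dendritic spines, had 6, 3 and 5 counts in EC and 8, 7 and 3 in EN, a mean of 0.723 ± 0.226 against 1.25 ± 0.513 CPM (SD, n = 3), with overlap. MiR-134-3p had 3 counts, all in EC. MiR-487b-3p had 3, 5 and 2 counts in EC and 3, 6 and 5 in EN, and miR-382-5p had 2, 2 and 4 against 4, 3 and 2. None of these separated the groups. MiR-485-5p, miR-543-3p and miR-496-3p had 11, 10 and 9 counts over the 6 libraries, and each was at 0 in at least 1 of them.

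Where both arms of a hairpin had a row, 5p held more counts in 7 of 13 hairpins, 3p in 5, and 1 was even. The difference was wide for miR-411 (247 against 2), miR-379 (4 counts in 3p), miR-134 (32 against 3) and miR-300, whose 3p arm had 35 counts and 5p arm 1. For miR-154 the 5p arm had 30 counts and the 3p arm 4. The remaining hairpins had 11 counts or fewer in each arm apart from miR-369, which is described next.

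For some members the count may depend on how reads were assigned between opposite strands, and no source used here gives the strand setting of the counting. By their RefSeq positions, 10 members belong to a gene that overlaps another miRNA gene by at least 50 percent of the shorter, each time on the opposite strand. Only 3 pairs of mature sequences were complementary over 19 or more bases with a row for the partner. MiR-369-5p and miR-3578 are exact reverse complements over all 22 bases, and miR-409a-3p is complementary to miR-409b over all of its 20 bases. The capitals here mark the complementary stretch.

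miR-369-5p: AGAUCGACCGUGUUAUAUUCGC
miR-3578: GCGAAUAUAACACGGUCGAUCU
miR-409a-3p: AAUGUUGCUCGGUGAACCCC
miR-409b: aGGGGUUCACCGAGCAACAUUcg

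MiR-369-5p had 5, 0 and 8 counts in EC and 9, 0 and 0 in EN, while miR-3578, which is outside the rule, had 0, 14 and 0 in EC and 0, 28 and 12 in EN. In each library the counts of this site thus stood in 1 row, in miR-369-5p for 3 libraries and in miR-3578 for 3, and in none were both rows above 0. The sum of both rows was 5, 14 and 8 in EC and 9, 28 and 12 in EN, with overlap of the groups, and miR-369-5p on its own could not be compared between them. MiR-369-3p, complementary to miR-3578 over 4 bases only, had 3, 9 and 2 counts in EC and 11, 3 and 1 in EN. At the other site the row of miR-409b held 7, 6 and 1 counts in EC and 7, 4 and 6 in EN, and miR-409a-3p held 3 counts in all, so reads of this site were listed mainly under the antisense name. MiR-376a-3p is complementary to miR-3595 over 19 bases, and miR-3595 had 1 count.

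**Figure D5:**
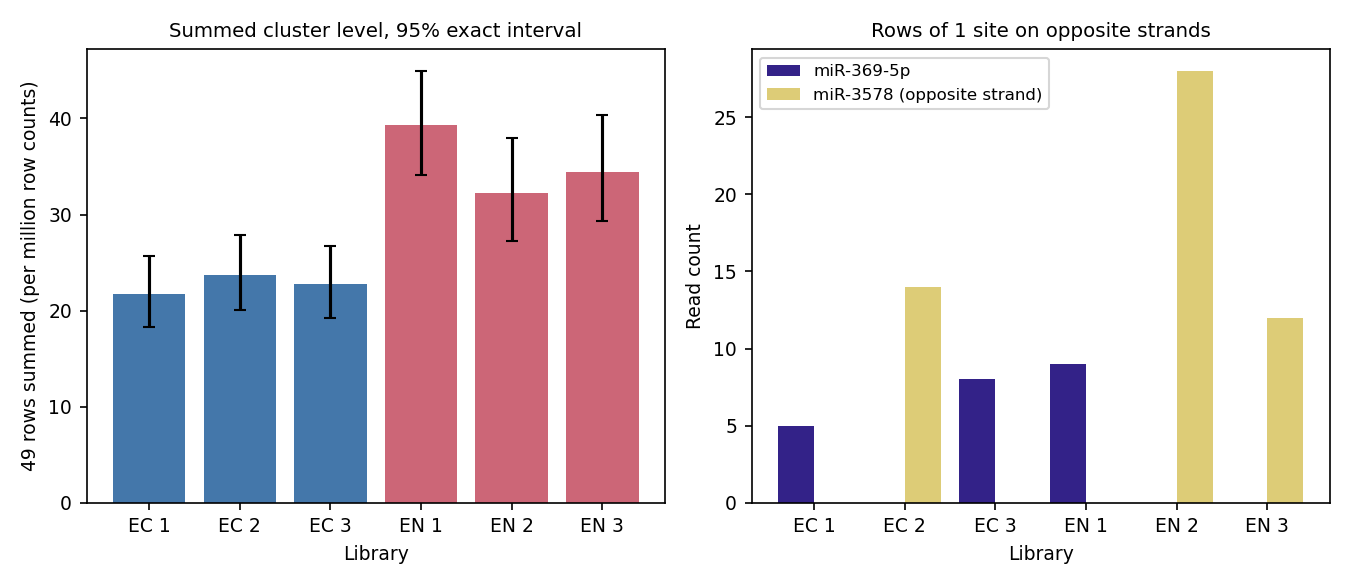
Left, level of the 49 cluster rows together (y, CPM before TMM scaling) in each library (x), with 95 percent exact binomial intervals that cover counting error only. The EN bars stand at 32.3 to 39.3 and the EC bars at 21.8 to 23.7. Right, read counts (y) of miR-369-5p and of its reverse complement miR-3578 in each library, of which 1 is at 0 in every library.

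Summed over the 49 rows, the level of the cluster was 21.6, 23.3 and 22.7 CPM in EC replicates 1 to 3, against 39.0, 33.4 and 34.4 CPM in EN replicates 1 to 3. All EN sums were above all EC sums. The means were 22.6 ± 0.862 CPM (EC) and 35.6 ± 3.02 CPM (EN; SD, n = 3), a ratio of 1.58 or 0.66 on the log2 scale, given as a description with no test. For counting error only, 95 percent exact binomial intervals were taken of the CPM before TMM scaling. That of EC replicate 2 reached up to 27.9 and that of EN replicate 2 down to 27.3, so these 2 overlapped. The intervals of EN replicate 1 (34.2 to 45.0) and EN replicate 3 (29.3 to 40.3) lay above every EC interval. With library totals implied by RPM as the divisor the ratio was 1.26. The sum did not rest on miR-411-5p, without which the log2 ratio was 0.62, and with rows of the opposite strand added, a choice made after seeing the data, it was 0.74.

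The group mean was higher in EN in 35 of 49 members (71.4 percent) and in 228 of 535 other known rows (42.6 percent). Over all libraries 30 of the 49 members had fewer than 10 counts, and 10 had 1 count. The direction of many members thus rests on few reads. Among the 260 other known rows under 10 CPM, which were not matched to the members by level, the group mean was higher in EN in 104. Their summed level was 500 to 584 CPM (EC) and 472 to 492 CPM (EN), a ratio of 0.900. The 606 newly named rows under 10 CPM had a higher mean in EN in 327 cases (54.0 percent), and the ratio of their summed levels was 1.14, with overlap of the groups. Under the RPM totals these ratios were 0.716 for the other known rows and 0.902 for the newly named rows. Of 6 lists of cell type markers, the sums of blood and neuroendocrine rows did not overlap between the groups, and those of the other 4 lists overlapped. The 6 blood cell rows summed to 94.5 to 127.1 CPM (EC) and 156 to 178 CPM (EN), with miR-451-5p called higher in EN by edgeR and miR-150-5p, which made up most of the sum, not called. The other 4 blood rows went both ways at low counts. MiR-142-5p had 6, 3 and 7 counts in EC and 0, 2 and 1 in EN, and miR-142-3p had 14, 7 and 10 against 7, 7 and 2. MiR-223-3p had 1, 3 and 1 counts in EC and 2, 2 and 3 in EN, and miR-144-3p was at 0 in EC and had 2 counts in EN. The 7 neuroendocrine rows summed to 995 to 1159 CPM (EC) and 1256 to 1512 CPM (EN), nearly all of it miR-7a-5p, with 0 of 6 tested rows called and miR-375-3p, typical of endocrine cells, at 2.65 and 2.75 CPM. MiR-96-5p had a lower mean in EN (3.68 ± 0.286 against 2.13 ± 0.927 CPM, SD, n = 3), as had miR-183-5p, with 12, 76 and 18 counts in EC and 28, 0 and 0 in EN. The 2 rows of smooth muscle and fibroblast markers, miR-143-3p and miR-145-5p, summed to 1.12 to 2.62 CPM (EC) and 0.925 to 2.29 CPM (EN), with overlap. The 3 endothelial rows stood at 1064 to 1144 and 1086 to 1228 CPM, with overlap, nearly all of it miR-126a-3p, while miR-126a-5p was called lower in EN (60.3 ± 5.20 against 33.2 ± 5.55 CPM, SD, n = 3). The 4 muscle rows stood at 1.76 to 30.6 and 1.75 to 2.40 CPM, the top value resting on 187 counts of miR-206-3p in EC replicate 1, and the 2 liver rows at 5.95 to 9.74 and 8.69 to 14.4 CPM. The part of any of these in the cluster's sums was not tested.

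Other imprinted, neuron-specific and clustered miRNAs gave a mixed picture. Of 8 rows from other imprinted loci, the median level was 0.202 CPM, but miR-335, from an intron of Mest, reached 51.1 ± 5.03 CPM (EC) and 39.3 ± 11.6 CPM (EN; SD, n = 3). MiR-296-5p reached 4.14 ± 0.428 and 4.04 ± 1.67 CPM. MiR-483-5p and miR-483-3p, from Igf2, and miR-675-3p, from H19, had 1, 4 and 1 counts over all libraries. Of 12 neuron-specific rows, 7 reached 10 CPM, led by miR-129-5p with 4131 ± 288 (EC) and 4104 ± 295.7 CPM (EN), while miR-124-3p, the most abundant miRNA of mature neurons, stood at 0.419 ± 0.337 and 0.565 ± 0.465 CPM. Of 12 rows of the X-linked cluster of miR-322 and miR-542, 11 reached 10 CPM, with a median of 96.6 CPM. In these 3 lists 0 of 2, 0 of 9 and 0 of 11 tested rows passed edgeR's test between EN and EC.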

How the data were processed

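Small RNA of 6 PC12 libraries (3 EC, 3 EN) was analysed from the read counts per miRNA row that the authors deposited. The deposited RPM columns gave alternative library totals, and the authors' deposited group averages of counts (which need not be whole, as estimated counts) and of RPM were not used. HISAT2 2.0.5 and Rnor 6.0 are named per the submitters' processing notes, with no role given. No source used here gives the counting program, annotation or strand setting. Per the labels' protocols, libraries were made with a TruSeq RNA kit from total RNA. Row counts per library summed to 4521694 to 6554639.

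Rows were filtered with filterByExpr, scaled by TMM and tested with edgeR 4.0.16 (quasi-likelihood, robust) in R 4.3.3, with Benjamini-Hochberg adjustment over 628 rows and a threshold of 0.05. DESeq2 1.42.0 and limma 3.58.1 were alternatives, with other scalings, filters and left-out libraries. The edgeR fit was tested on simulated data. Intervals (95 percent, exact) and the limit of 3 counts for a 0 cover counting error only, since reads carried no molecular identifiers. Edit distances and complements were computed from RefSeq sequences. Members named were the 20 of highest mean CPM and those kept by the filter, and the other arms of their hairpins, with members outside this rule named where a count was singled out after seeing values. The members and lists were chosen with earlier results of these data known.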

Additional observations from a re-analysis of the deposited data

How the results depend on the processing

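No cluster member was called under any of the 16 alternatives in which members were tested, and a filter at a mean of 10 CPM left none to test. Over them the adjusted p of miR-411-5p ran from 0.0925 to 0.415, of miR-379-5p from 0.381 to 0.891 and of miR-376a-3p from 0.426 to 0.972. Leaving out 1 library gave log2 fold changes of miR-376a-3p from -0.67 (without EN replicate 1) to 0.10, reversed without EN replicate 3; the cause was not tested. Over all rows, calls went from 25 to 101 with library totals implied by RPM (13 higher, 88 lower, against 13 and 12), 44 with no filter, 70 with DESeq2, 2 with a replicate block, and between 2 and 39 when 1 library was left out. The RPM totals moved the median log2 fold change of all rows from 0.02 to -0.30. Whether libraries of the same replicate number were paired is not known. Same-numbered deviations from the group means correlated at 0.091, -0.036 and 0.018, and differently numbered ones at -0.124 to 0.095. With 3 libraries per group, these correlations cannot exclude a shared batch. Of the EC libraries, leaving out replicate 1 gave 10 calls, replicate 2 gave 39 and replicate 3 gave 8. Of the EN libraries, replicate 1 gave 34, replicate 2 gave 3 and replicate 3 gave 2. With the block, 0 members had an unadjusted p under 0.05. Members with reads in 3 or more libraries numbered 17 at a minimum of 3 counts and 3 at 10 counts. The difference of median levels between other known rows and members, 12.5 CPM, became 3.52 with RPM totals, 9.60 without rows of overlapping genes, 25.4 with arms summed and 11.8 to 12.8 with 1 library left out. The RPM totals rescale members and other rows alike, and the ratio of medians was 81.9 with them, against 82.2 with TMM scaling, and it was 70.0 without rows of overlapping genes and 64.0 with arms summed. The summed log2 ratio, 0.66, became 0.33 with RPM totals and 0.59 to 0.70 with 1 library left out. At these depths 30 of 49 members had fewer than 10 counts in all, which limits what could be seen for them.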
